A study of Mus musculus with 6 samples.

Results

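The Nodal and activin genes described here are secreted ligands of the transforming growth factor beta (TGF-beta) family, their receptors and the proteins that block them. The 10 members are Lefty1, Inhba, Gdf3, Tdgf1, Fst, Nodal, Lefty2, Inhbb, Acvr2a and Acvr2b, taken by name wherever a probe of the array carried their RefSeq accession or symbol. Of these, 8 were measured, on 10 of 41006 probes, and 2 (Inhbb and Acvr2a) are not analysed here because no probe could be named for them. All 8 measured members passed the filter on dim probes, as 8 of the 36016 genes or accessions tested. Of these 36016, 12116 carried a gene name, and the shares over all genes given below include the unnamed rest. The groups, all from the mouse, were multipotent adult progenitor cells (MAPC), undifferentiated embryonic stem cells (ESC), and neurospheres (NS), with 2 arrays each, which the series describes as biological replicates.

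MAPC are cultured bone marrow cells that adhere to the dish. Both arrays held clone 2, labelled as high in Oct4. The marrow had been in culture for 4 weeks when CD45+ and Ter119+ cells were removed, and the rest were then seeded 10 to a well. Cells past 80 population doublings were used, grown at 5% oxygen in medium with 2% serum, 10 ng/mL epidermal growth factor (EGF), platelet-derived growth factor BB and leukemia inhibitory factor (LIF). The MAPC spread is therefore one between samples of 1 clone. ESC were C57BL/6 cells kept with 15% serum and LIF on irradiated mouse embryonic fibroblasts, a feeder layer, and moved to dishes without feeders before RNA was collected. NS were C57BL/6 neurospheres, which are free-floating balls of neural progenitors, from the embryonic forebrain at E11.5, grown with basic fibroblast growth factor and EGF at 20 ng/mL. Cell type and culture differed together and cannot be told apart. Each sample was labelled with Cy3 and hybridised with a common reference, RNA pooled from 11 mouse cell lines and labelled with Cy5, so each value is a log2 ratio of sample to reference.

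Nodal and activin bind pairs of serine/threonine kinase receptors, which phosphorylate the transcription factors Smad2 and Smad3; these join Smad4 and enter the nucleus. Nodal also needs a co-receptor on the cell surface, such as the product of Tdgf1, whereas activin does not. Lefty proteins block Nodal and are themselves induced by it, and follistatin (Fst) binds activin and keeps it from its receptors. In the mouse embryo the pathway is known for forming mesoderm and endoderm and for setting left and right, and Lefty1, Gdf3 and Tdgf1 are known for their high expression in embryonic stem cells.

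The labelled cell types were set beside marker lists. These lists were chosen with earlier results of these data known, so they are no independent check of the labels. All 10 ESC markers were lower in MAPC than in ESC, and 8 of 10 NS markers were lower in MAPC than in NS. Of the ESC markers, 3 were not well above background on the MAPC array numbered 1, and 1 on that numbered 2. Of all genes tested, 22.1% and 22.5% were lower in MAPC in these 2 comparisons. Between ESC and NS, 8 of 10 ESC markers were higher in ESC, against 19.8% of all genes. Sox2 and Esrrb did not separate ESC from NS. In the same comparison 8 of 10 NS markers were lower in ESC, against 18.3% of all genes. The share of probes well above background in the sample channel ran over the arrays from 91.9% to 99.6%, a weak criterion. The root mean square difference between the 2 arrays of a group was 0.128 in MAPC, 0.147 in ESC and 0.109 in NS on the log2 scale. Array images were analysed on 2 days, with the arrays numbered 2 of the 3 groups on the first day and those numbered 1 on the second.

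The array measures each gene through a synthetic 60-base probe, and the probe sequences of the main members, as deposited, are shown because 1 of them, Tdgf1, gave very different sizes of change on its 3 probes. The capitals mark the stop codon that ends the Inhba coding sequence and the AATAAA of a polyadenylation signal in the Lefty1 probe. For Lefty1 and for the first and last Tdgf1 probe below, only the final 30 bases are given.
Lefty1 (chromosome 1, A_66_P127450): ctagatgtgAATAAAatatgctttgttttg
Inhba (chromosome 13, A_66_P108982): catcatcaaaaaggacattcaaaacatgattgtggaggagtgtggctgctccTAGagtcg
Gdf3 (chromosome 6, A_66_P107818): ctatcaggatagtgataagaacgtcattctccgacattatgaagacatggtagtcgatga
Tdgf1 (chromosome 9, A_66_P112125): aggcctttcctctgcacggtccctcctctt
Tdgf1 (chromosome 9, A_66_P138477): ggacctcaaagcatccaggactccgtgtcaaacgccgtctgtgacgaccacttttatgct
Tdgf1 (chromosome 9, A_66_P124158): attgttcatgaatatgcacagtaaaaatgg
Fst (chromosome 13, A_66_P111527): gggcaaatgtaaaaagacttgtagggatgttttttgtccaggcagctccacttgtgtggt
No 2 of the 10 member probes shared a run longer than 8 bases. The whole 60-base Tdgf1 probes differed in base composition, with 50% G and C in A_66_P112125, 53.3% in A_66_P138477 and 30% in A_66_P124158. How far each probe also binds related transcripts was not tested.

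Between MAPC and ESC, 7 of the 8 measured members were lower in MAPC and 1, Fst, was higher. Over all genes tested, 38.0% passed the adjusted threshold of 0.05 in this comparison, 22.1% lower in MAPC and 15.9% higher (limma, Benjamini-Hochberg adjustment). The median log2 difference (MAPC minus ESC) was -1.60 over the members and 0.0124 over all genes. Between MAPC and NS, 1 member was higher in MAPC, 2 were lower and 5 did not pass, with a median of 0.06 against 0.0318 over all genes; 43.7% of all genes passed, 21.2% higher and 22.5% lower in MAPC. Between ESC and NS, all 8 measured members were higher in ESC, with a median of 1.71 against 0.00847 over all genes; 38.1% of all genes passed, 19.8% higher and 18.3% lower in ESC. The comparisons share arrays, so the high ESC values enter both of those that involve ESC. As these are bulk samples, fewer expressing cells and less RNA per cell cannot be told apart.

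**Figure D1:**
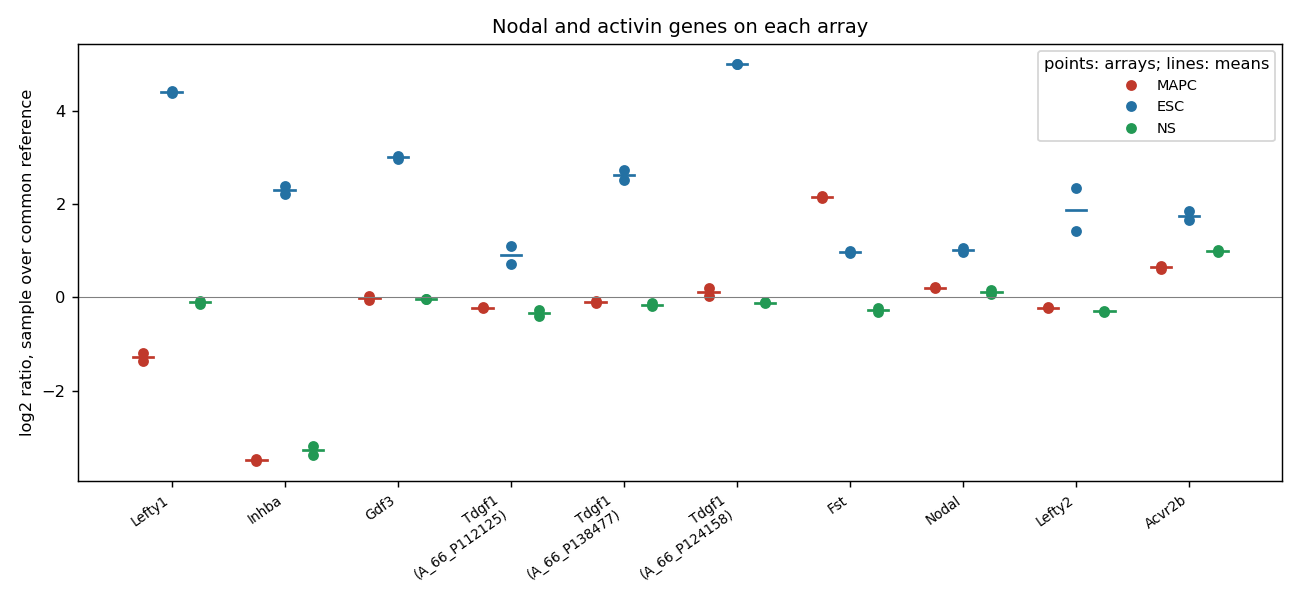
Log2 ratio of sample to common reference (y axis) of the 10 member probes (x axis) on each of the 6 arrays; points are arrays, horizontal lines are group means, and colours mark MAPC, ESC and NS. The ESC arrays are highest for every probe except that of Fst, where the MAPC arrays at 2.12 and 2.18 stand above the ESC arrays at 0.95 and 0.99.

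The ligand gene with the largest difference was Inhba, which encodes the beta A chain that forms activin A as a dimer and inhibin A with an alpha chain. Its log2 ratio was -3.46 and -3.50 in MAPC, 2.22 and 2.39 in ESC, and -3.18 and -3.38 in NS. The ESC arrays stood far above the other 4, which lay close together. The log2 difference between MAPC and ESC was -5.79 ± 0.0843 (moderated standard error, SE; adjusted p = 1.65e-08, limma), a 55.2-fold lower ratio in MAPC. In the sample channel the background-subtracted intensity was 38.7 and 34.1 in MAPC, 6690 and 7380 in ESC, and 77.9 and 71.3 in NS. On both MAPC arrays the Inhba signal was below the brightest of 314 negative control spots, which reached 39.9 and 165, so the fold is set against a signal close to background. ESC exceeded NS by 5.58 (adjusted p = 1.68e-08, limma). MAPC and NS differed by -0.20 ± 0.0843, which did not pass (adjusted p = 0.0927, limma), although 5 of 18 other settings of the processing put it past the threshold.

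Gdf3, a ligand that signals through the same co-receptor and receptors as Nodal, was measured above background in ESC and close to it elsewhere. Its log2 ratio was -0.05 and 0.02 in MAPC, 3.03 and 2.96 in ESC, and -0.04 and -0.04 in NS. Its background-subtracted sample intensity was 2.01 and 9 in MAPC, 1360 and 1480 in ESC, and 11 and -0.733 in NS. The probe was not well above background on both MAPC arrays and on 1 of the 2 NS arrays, so the fold for MAPC against ESC depends on the floor chosen. In the sample channel Gdf3 was 33.5-fold lower in MAPC than in ESC with the floor used here. The dim side was set at the lowest signal well above background on each array, or at the probe's own signal where higher. Negative controls reached 39.9 and 165 on the MAPC arrays, and a higher floor would give a smaller fold. The fitted log2 difference of the ratios was -3.01 ± 0.056 (adjusted p = 2.81e-08, limma), which is a smaller change, of 8.05-fold. The reference channel was also near background on the MAPC arrays. The log2 ratio in ESC exceeded that in NS by 3.03 (adjusted p = 3.13e-08, limma). The probe was marked well above background on 1 of the 2 NS arrays, where its signal of 11 was above only 49% of the negative controls. No fold is given between MAPC and NS. Gdf3 entered the tests only through ESC, the group where it is high, so its calls and its place in the counts follow in part from that filter.

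Nodal itself changed less than the other 2 ligands. The ratio to the reference was, in log2, 0.21 and 0.19 in MAPC, 0.98 and 1.06 in ESC, and 0.08 and 0.16 in NS. The ESC arrays were again the highest, and the MAPC and NS arrays lay within 0.2 of each other. The Nodal sample signal on the MAPC array numbered 2, 159, was below the brightest negative control, at 165, and above 99.7% of the controls. The difference was -0.82 ± 0.0577 for MAPC against ESC (adjusted p = 1.68e-05) and 0.90 ± 0.0577 for ESC against NS (adjusted p = 9.15e-06, both limma). MAPC against NS gave 0.08 (adjusted p = 0.32).

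Tdgf1 encodes Cripto, the membrane-bound co-receptor of Nodal, Gdf1 and Gdf3. On the probe with the highest mean log2 intensity over the 6 arrays and both dyes, A_66_P112125, which stands for the gene in the counts above, the log2 ratio was -0.24 and -0.21 in MAPC, 1.09 and 0.71 in ESC, and -0.40 and -0.28 in NS. On A_66_P138477 it was -0.09 and -0.13 in MAPC, 2.73 and 2.52 in ESC, and -0.13 and -0.19 in NS. On A_66_P124158 it was 0.20 and 0.02 in MAPC, 5.00 and 5.00 in ESC, and -0.13 and -0.10 in NS. ESC was the highest group on each of the 3 probes, and the size of the gap depended on the probe. The difference between MAPC and ESC was -1.12 ± 0.115 (adjusted p = 0.000132), -2.73 ± 0.0765 (adjusted p = 1.39e-07) and -4.89 ± 0.0682 (adjusted p = 1.43e-08), in the same order of probes (limma).

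Averaged on the log2 scale, this rule took the Tdgf1 probe with the smallest difference; on the linear scale A_66_P124158 was the brighter in the sample channel of the ESC arrays. The chosen probe, A_66_P112125, was bright in every group, with sample intensities of 438 and 503 in MAPC, 1190 and 1510 in ESC, and 435 and 824 in NS. The A_66_P124158 probe read 15.3 and 16 in MAPC, 21500 and 21100 in ESC, and 19.8 and 9.24 in NS. Its MAPC values were below the brightest negative control on the same array. Between ESC and NS the 3 probes gave 1.24, 2.78 and 5.12 (adjusted p = 6.87e-05, 1.35e-07 and 1.27e-08, limma). Between MAPC and NS they gave 0.12, 0.06 and 0.23, of which only the last passed (adjusted p = 0.0286, limma), and its signal there was near background in both groups.

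The promoter of Tdgf1 is shown because the gene was higher in ESC on each of its probes and because the Nodal pathway acts on its targets through FOXH1 and Smad proteins. The RefSeq promoter table (GRCm38.p6) held 6 of the 10 members: Inhba, Tdgf1, Nodal, Inhbb, Acvr2a and Acvr2b. Inhba, Nodal and Acvr2b were also highest in ESC, so this trait does not single out Tdgf1. Among the 6, Tdgf1 alone held the FOXH1-type letters given below. Whether the Nodal pathway acts on Tdgf1 in these cells was not tested. The 250 bases before the Tdgf1 start, chr9:110946159-110946408 on the minus strand, read as follows, with capitals at the motif letters found.
Tdgf1 promoter: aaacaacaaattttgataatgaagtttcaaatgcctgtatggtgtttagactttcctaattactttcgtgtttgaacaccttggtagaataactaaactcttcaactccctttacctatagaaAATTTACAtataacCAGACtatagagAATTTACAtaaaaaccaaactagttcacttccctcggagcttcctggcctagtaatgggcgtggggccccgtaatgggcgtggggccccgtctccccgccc
The letters AATNNACA, a FOXH1-type motif searched on both strands, matched at 127 and 101 bases before the start. The letters CAGAC, a Smad-type motif that does not overlap them, matched between the other two at 113 bases. In windows of the same length, AATNNACA occurred in 10.9% of 32851 promoters and in 1 of the 6 members, and CAGAC in 42.2% of promoters and in 3 of the 6 members (Tdgf1, Acvr2a and Acvr2b). A match of letters describes the sequence and does not show a binding site.

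Acvr2b, a type II receptor that binds both Nodal and activin, differed among the 3 groups. Log2 ratios were 0.68 and 0.60 in MAPC, 1.84 and 1.66 in ESC, and 0.97 and 1.01 in NS. No 2 groups overlapped, with ESC highest and MAPC lowest. On the MAPC array numbered 2 the Acvr2b sample signal, 92, was below the brightest negative control, at 165, and above 99.7% of the controls. The difference was -1.11 ± 0.0738 for MAPC against ESC (adjusted p = 1.17e-05), -0.36 ± 0.0738 for MAPC against NS (adjusted p = 0.00521) and 0.76 ± 0.0738 for ESC against NS (adjusted p = 9.30e-05, limma). The difference from NS did not pass when the deposited processed intensities were used (adjusted p = 0.0665).

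Of the antagonists, Lefty1 had the widest range of the members after Inhba. Log2 ratios were -1.37 and -1.19 in MAPC, 4.42 and 4.37 in ESC, and -0.14 and -0.07 in NS. The groups did not overlap, and MAPC lay below NS as well as below ESC. The difference was -5.67 ± 0.0716 against ESC (adjusted p = 1.33e-08), a 51.1-fold lower ratio, and -1.18 ± 0.0716 against NS (adjusted p = 4.92e-06, limma). ESC exceeded NS by 4.49 (adjusted p = 2.05e-08, limma). The sample intensity was 42.8 and 61 in MAPC, 15300 and 14200 in ESC, and 176 and 200 in NS. On the MAPC array numbered 2 the Lefty1 signal was below the brightest negative control, at 165, and above 99.7% of the controls.

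Lefty2, which lies beside Lefty1 in the mouse genome and also blocks Nodal, gave log2 ratios of -0.24 and -0.20 in MAPC, 2.33 and 1.41 in ESC, and -0.29 and -0.31 in NS. The ESC arrays were the highest, with an SD of 0.65 (n = 2) that was the widest replicate spread among the 10 member probes. Their sample intensities were close, at 1340 and 1260, while the reference intensities on the same spots were 578 and 1190. The difference was -2.09 ± 0.246 for MAPC against ESC (adjusted p = 0.000296) and 2.17 ± 0.246 for ESC against NS (adjusted p = 0.000219, limma). MAPC against NS gave 0.08 (adjusted p = 0.829).

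Fst was the 1 member with its highest value in MAPC. Its log2 ratio was 2.12 and 2.18 in MAPC, 0.95 and 0.99 in ESC, and -0.32 and -0.22 in NS, and no groups overlapped. The sample intensity was 628 and 633 in MAPC, 253 and 359 in ESC, and 132 and 164 in NS. MAPC exceeded ESC by 1.18 ± 0.0585 (2.27-fold, adjusted p = 2.46e-06) and NS by 2.42 ± 0.0585 (5.36-fold, adjusted p = 4.17e-08, limma). ESC exceeded NS by 1.24 (adjusted p = 1.79e-06, limma).

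The differences held within each image analysis day. For Lefty1 the MAPC minus ESC difference was -5.56 on the first day and -5.79 on the second, and for Inhba it was -5.89 and -5.68. For Lefty2 it was -1.60 and -2.57, the widest gap between days among the members. For Fst the MAPC minus NS difference was 2.41 on the first day and 2.44 on the second.

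The reference channel, which per the labels held the same pooled RNA on every array, did not read the same on every array at the member probes. For A_66_P124158 of Tdgf1 the reference intensity was 21.8 and 32.6 on the MAPC arrays, 1230 and 1380 on the ESC arrays, and 35.4 and 35.9 on the NS arrays. For Gdf3 it was 3.42 and 13 on the MAPC arrays, 344 and 441 on the ESC arrays, and 6.98 and 5.76 on the NS arrays. For Lefty1 it was 489 and 590, 1340 and 1480, and 474 and 553 in the same order of arrays. The reference thus read high where the Cy3 sample on the same spot was bright. For Inhba, whose reference signal was high throughout, it was 2340 and 2500 on the MAPC arrays, 2760 and 3090 on the ESC arrays, and 2410 and 2970 on the NS arrays.

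For Tdgf1 (A_66_P124158), Lefty1 and Inhba, all bright in ESC, the log ratio difference between MAPC and ESC was smaller than that in the sample channel alone. After normalization, the MAPC minus ESC difference in the sample channel was -8.55 for Tdgf1 (A_66_P124158), -6.88 for Lefty1 and -6.02 for Inhba on the log2 scale. In the reference channel it was -3.66, -1.21 and -0.23 for the same probes, and -2.19 for Gdf3. Acvr2b and Nodal did not have this order. Their MAPC minus ESC differences were -0.91 and -0.77 in the sample channel, against log ratio differences of -1.11 and -0.82. For Fst, which was higher in MAPC, the sample channel gave 1.29 against 1.18. Its MAPC minus NS difference was 2.08 in the sample channel against 2.42. Over the 54 named genes whose sample channel was more than 4 log2 units lower in MAPC than in ESC, the median reference difference was -0.28, with quartiles of -0.90 and -0.11. The cause was not tested.

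**Figure D2:**
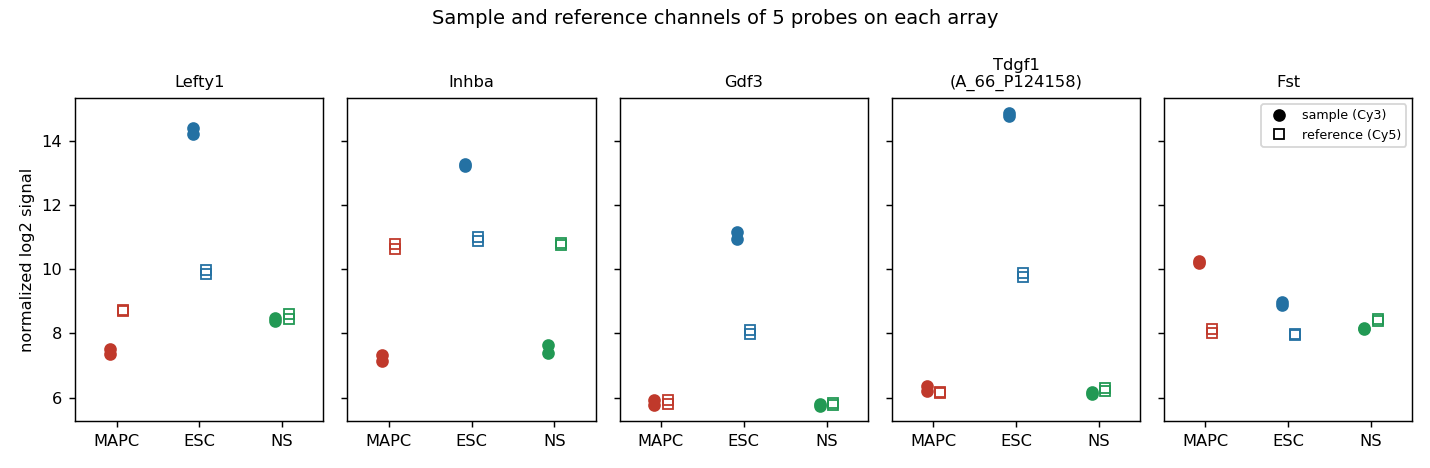
Normalized log2 signal (y axis) of the sample channel (filled circles) and the reference channel (open squares) on the MAPC, ESC and NS arrays (x axis) for 5 probes, 2 arrays per group. The reference of Tdgf1 and Gdf3 moves with the sample, by -3.66 and -2.19 between MAPC and ESC, while that of Inhba moves by -0.23.

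The rest of the pathway was read from lists by role, whose counts can be set beside the shares over all genes. These shares were 15.9% higher and 22.1% lower in MAPC against ESC, and 21.2% and 22.5% in MAPC against NS. In ESC against NS they were 19.8% higher and 18.3% lower. Of 6 ligand genes tested, 4 were lower in MAPC than in ESC and 2, Inhbc and Inhbe, did not pass. The fourth beside the 3 members was Gdf1, a partner of Nodal, which differed from them in NS. Its log2 ratio was -1.35 and -1.35 in MAPC, 1.36 and 1.11 in ESC, and 2.17 and 2.23 in NS, so that NS was the highest group. MAPC was below both, with differences from ESC of -2.58 (adjusted p = 2.87e-07) and from NS of -3.55 (adjusted p = 3.73e-08, limma). In mouse brain Gdf1 is known to be transcribed on 1 RNA together with Cers1. Furin, the protease that cuts the Nodal precursor, was the 1 processing enzyme tested and was highest in MAPC, at 2.14 and 1.61, against 0.39 and 0.68 in ESC and -0.56 and -0.56 in NS (MAPC minus ESC 1.34, adjusted p = 0.000378, and MAPC minus NS 2.43, adjusted p = 9.35e-06, limma).

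Of 5 receptor and co-receptor genes, 2 were lower in MAPC than in ESC, both members, and 3 did not pass (Cfc1, Acvr1b and Tgfbr3). Against NS, Cfc1, the other Nodal co-receptor of its family, was higher in MAPC by 0.46 (adjusted p = 0.00626, limma), Acvr2b was lower, and 3 did not pass. Acvr1b, the type I receptor of activin and Nodal, passed in none of the 3 comparisons, with differences of 0.20, 0.23 and 0.03. Its probe was not well above background on every array. Over 17 other settings its difference ran from 0.04 to 0.59 for MAPC minus ESC and from 0.03 to 0.73 for MAPC minus NS. Some of these settings put each of the 2 past the threshold. Of 6 antagonist genes, 1 was higher and 2 were lower in MAPC than in ESC, all of them members. Fstl3, a relative of follistatin, was higher than in NS by 0.47 in MAPC (adjusted p = 0.000328) and by 0.41 in ESC (adjusted p = 0.000855, limma). Inha, the alpha chain of inhibins, was lower in MAPC than in NS by a difference of -0.28 (adjusted p = 0.0206, limma), a call lost in 6 of 18 other settings, among them without MAPC replicate 1 (-0.17) and without either NS array (-0.27 and -0.28), and Cer1, a secreted Nodal inhibitor, passed in no comparison.

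Of 11 genes of Smad signalling, 2 were higher, 6 were lower and 3 did not pass in MAPC against ESC. Smad2 was higher in MAPC by 0.55 and Smad3 was lower, at -0.46 (adjusted p = 0.000226 and 0.00432, limma). The second Smad3 probe gave 0.11 and did not pass, so the Smad3 call rests on 1 probe. The repressors of Smad-driven transcription Skil, Tgif1 and Tgif2 were lower in MAPC than in ESC, with differences of -1.36, -1.69 and -1.77 (adjusted p = 2.18e-05, 2.03e-06 and 6.72e-07, limma). The second Tgif2 probe gave a smaller difference, -0.78 (adjusted p = 4.46e-05). Foxh1, the DNA-binding partner of Smads at Nodal targets, passed in none of the 3 comparisons, with differences of -0.04, -0.09 and -0.05. Against NS, 4 of the 11 were higher in MAPC, 4 were lower and 3 did not pass, and Tgif2 was lower by a difference of -1.66 (adjusted p = 5.98e-07, limma), or -0.43 on its second probe (adjusted p = 0.00103). ESC against NS gave 3 higher, 2 lower and 6 that did not pass, with Tgif1 and Skil higher in ESC by 2.01 and 1.56.

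Of 9 genes known as Nodal targets in the embryo, 3 were higher in MAPC than in ESC, 3 were lower and 3 did not pass. The endoderm factors Sox17 and Foxa2 read 5.30 and 5.32, and 4.07 and 3.92, in MAPC. In ESC they read -0.11 and -0.13, and -0.22 and -0.19. MAPC exceeded ESC by 5.43 for Sox17 and 4.20 for Foxa2 (adjusted p = 7.65e-09 and 1.75e-08, limma). In NS they read -0.38 and -0.32, and -0.35 and -0.31.

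The other Nodal targets moved less or the other way. Mixl1 was higher in MAPC than in ESC by 0.62 (adjusted p = 6.74e-05), and Gsc was lower, at -0.65 (adjusted p = 7.61e-05, limma). The Gsc probe was not well above background on every array, and this difference ran from -1.82 to -0.14 over 17 other settings. Hhex was lower at -0.27 (adjusted p = 0.0245, limma), but gave 0.02 with the sample channel alone. Otx2, a head and anterior epiblast factor, was lower in MAPC than in ESC (-2.97, adjusted p = 9.16e-05) and NS (-3.22, adjusted p = 4.29e-05, limma). Its ESC arrays read 3.62 and 2.55, so that leaving out the second of them put ESC above NS by 0.28, against -0.25 with both. T (brachyury) had probes that disagreed, with a MAPC minus ESC difference of 0.11 on one and -0.75 on the other. Against NS, 4 of the 9 targets were higher in MAPC, 2 were lower and 3 did not pass; ESC against NS gave 2 higher, none lower and 7 that did not pass. Of the wider endoderm list, which shares Sox17 and Foxa2 with the targets, 8 of 9 were higher in MAPC than in ESC and 8 of 9 higher than in NS.

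**Figure D3:**
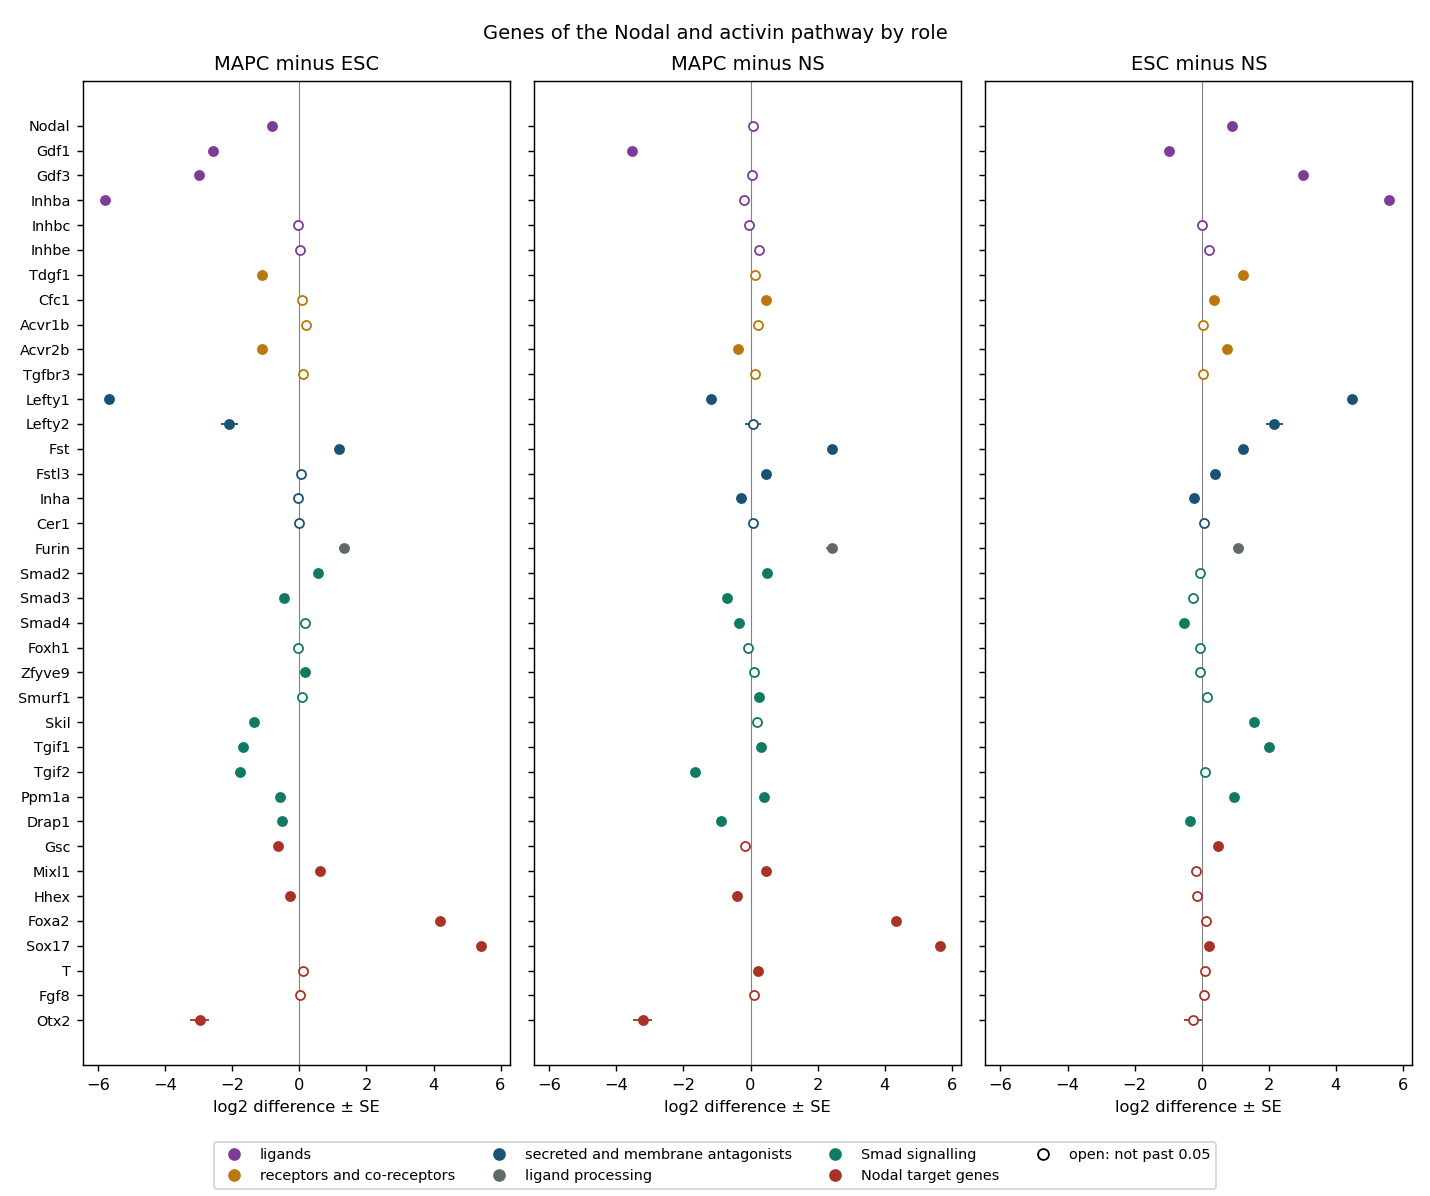
Log2 difference with its SE (x axis) of each tested pathway gene (y axis, coloured by role) in 3 panels, from left to right MAPC minus ESC, then MAPC minus NS, then ESC minus NS; filled points passed an adjusted p of 0.05. The members Inhba at -5.79 and Lefty1 at -5.67 lie farthest to the left for MAPC minus ESC, and the targets Sox17 at 5.43 and Foxa2 at 4.20 farthest to the right.

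Inhba and Fst are also expressed by fibroblasts, and the ESC had been kept on fibroblast feeders, so fibroblast markers were read beside them. Of 8 fibroblast markers tested, 7 were lower in MAPC than in ESC and 1, Thy1, did not pass, with a median difference of -2.66. On a second Thy1 probe the difference was -2.36. ESC against NS gave 6 higher, 1 lower and 1 that did not pass, with a median of 1.29. Among all genes, 22.1% were lower in MAPC than in ESC, 22.5% lower in MAPC than in NS, and 19.8% higher in ESC than in NS. The summed sample intensity of the 8 markers was 1170 and 1070 in MAPC, 18600 and 16500 in ESC, and 8140 and 9280 in NS, and 1 marker was not well above background on each MAPC array. Between MAPC and NS, where Inhba did not pass, 7 of the 8 markers were lower in MAPC, with a median of -1.0, and 1 did not pass.

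Single markers differed in their order over the groups. Col1a1, Col1a2 and Lox were, like Inhba, highest in ESC, with MAPC and NS closer together. Their MAPC minus NS differences were -0.21, -0.32 and -0.21, beside -0.20 for Inhba. For Postn, Dcn, Fbln2 and Lum this difference was larger, at -2.69, -2.26, -3.28 and -1.68, and for Thy1 it was 0.08. Postn, a secreted matrix protein of fibroblasts, read -3.68 and -3.78 in MAPC, 3.06 and 2.32 in ESC, and -1.09 and -0.99 in NS. The matrix protein gene Fbln2 read -3.16 and -3.41 in MAPC, -0.10 and 0.07 in ESC, and 0.08 and -0.10 in NS, so ESC and NS overlapped, and Lum, a matrix proteoglycan gene, was highest in NS, at 0.98 and 0.97. The mean log2 ratio of the 8 markers was -2.79 and -2.79 in MAPC, -0.04 and -0.26 in ESC, and -1.45 and -1.48 in NS. The part of feeder cells in the Inhba and Fst results was not tested.

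**Figure D4:**
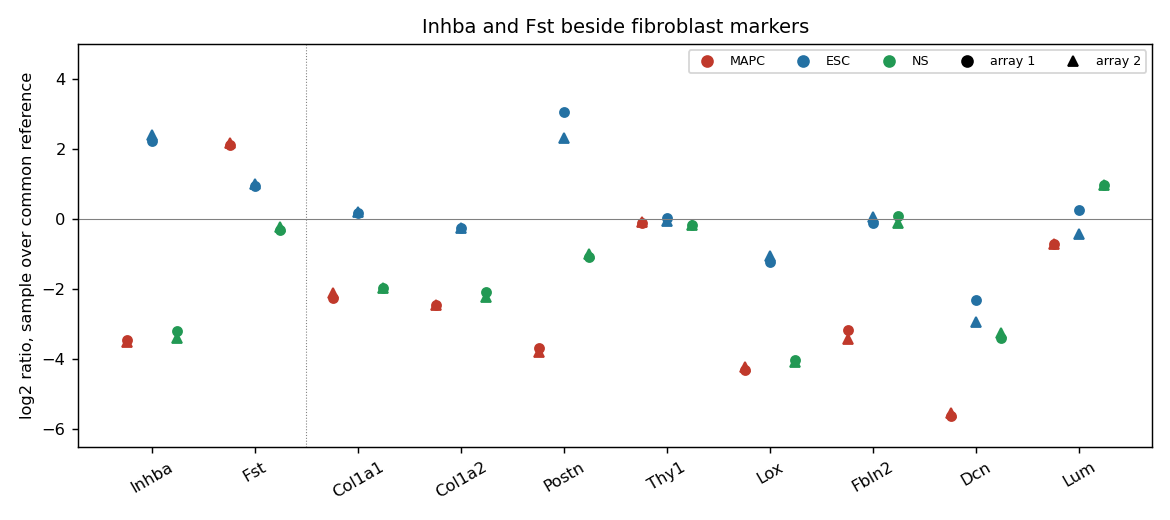
Log2 ratio of sample to reference (y axis) of Inhba, Fst and 8 fibroblast markers (x axis) on each array; colours mark MAPC, ESC and NS, circles the arrays numbered 1 and triangles those numbered 2. Inhba and Postn are both highest in ESC, and Fst is highest in MAPC, at 2.12 and 2.18.

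The genes most like each of 5 members were ranked by the root mean square difference between log2 ratios, each centred on its own mean over the 6 arrays, among 11948 named genes. With 3 groups of 2 arrays this measure mostly compares 3 levels. For Lefty1 the nearest were Stmn2 (0.333), Tcea3 (0.349) and Trh (0.469). For Inhba they were Morc1 (0.173), the ESC marker Nr0b1 (0.357) and Lefty1 (0.504). The nearest to Gdf3 were Kirrel2 (0.0686), Krt17 (0.0937) and Tfap2c (0.104). Gdf3 was close to background in MAPC and NS, so this closeness rests in part on low signals. Over other settings the MAPC minus ESC difference ran from -4.5 to -1.05 for Kirrel2, from -4.09 to -1.15 for Krt17 and from -3.53 to -1.82 for Tfap2c. The Tdgf1 probe that stands for the gene was nearest to Itgae (0.0417), Septin1 (0.044) and Prlr (0.0545), which share its smaller difference. Eml3 (0.123) and Tmc6 (0.137) were among the nearest to Fst.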

How the data were processed

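RNA of MAPC, ESC and NS was measured on 6 two-colour arrays. Per the file headers, the authors read them with Agilent Feature Extraction A.7.5.1; the deposited values are spot and background intensities and log10 ratios. The deposited series matrix is in log10 units with array medians of 2.95 to 2.97. For 90.1% of its 39545 spots without a value at a floor its differences between arrays equalled those of the deposited ratios of sample to reference (tolerance 0.001); its centring stays unknown. Columns without a sample numbered 0.

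Intensities were background corrected (normexp, offset 50) and loess normalized within arrays in limma 3.58.1 (R 4.3.3, data.table at version 1.17.8). Control and outlier spots were dropped. Through RefSeq, 15294 of 41006 probes were named by accession, 15 by symbol and 72 by older symbol; 25625 stayed unnamed. The probe with the highest mean log2 intensity of both dyes stood for a gene. Genes were tested whose probe Feature Extraction marked as well above background for the Cy3 sample, in some group on each of its arrays. All 6 arrays entered 1 limma fit with 3 residual degrees of freedom (two-sided, Benjamini-Hochberg over all genes, threshold 0.05), tested on simulated data. The spread between arrays may be technical, and 2 arrays per group limit the precision. Members and gene lists were chosen with earlier results of these data known; genes were named as members, as list genes with the largest differences or not past the threshold, and as the 3 most alike; some are not reported here. Probe sequences are the deposited ones, and the promoter is from RefSeq (GRCm38.p6).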

Additional observations from a re-analysis of the deposited data

How the results depend on the processing

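Over 18 other settings of the processing (17 for Gdf3, which the strictest filter removed), every member's MAPC minus ESC and ESC minus NS difference kept its direction and stayed past the threshold. The MAPC minus ESC difference ran from -6.88 to -4.57 for Lefty1, from -6.83 to -4 for Inhba, from -2.91 to -0.90 for Tdgf1 and from 0.81 to 1.41 for Fst. The lowest Tdgf1 value came from averaging its 3 probes. Between MAPC and NS, Lefty1 and Fst kept their calls. Acvr2b lost its call with the deposited processed intensities (-0.35, adjusted p = 0.0665), the series matrix (-0.35, 0.0633) and the sample channel alone (-0.27, 0.175). Inhba gained one with offset 16 (-0.42, adjusted p = 0.0122), the processed intensities (-0.60, 0.0138), the series matrix (-0.60, 0.0128), log ratios scaled between arrays (-0.71, 0.000826) and without NS replicate 2 (-0.30, 0.0451; range over arrays left out -0.30 to -0.11), and was 0.05 without background subtraction. The causes were not tested.

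Genes past the threshold between MAPC and ESC fell to 8884 with the sample channel alone, against 13678. Leaving out each array gave 11540 to 12844 genes for MAPC against ESC, 13011 to 16049 for MAPC against NS and 11369 to 13568 for ESC against NS, and 8, 3 to 4, and 8 members; a lone array is then assumed to vary like the other groups. With the replicate number as a block, which equals the image analysis day, 8, 3 and 8 members passed, among 14257, 16391 and 14230 genes. Deviations of same-numbered arrays correlated at 0.105, 0.163 and 0.208, and the labels do not say that numbers pair samples. Directions turned for Otx2 between ESC and NS without ESC replicate 2 (0.28; -0.78 without ESC replicate 1), for Sox17 between ESC and NS (-0.30) and Hhex between MAPC and ESC (0.02) and between MAPC and NS (0.08) with the sample channel alone, for T with the mean of its probes (MAPC minus ESC -0.32, MAPC minus NS -0.03), and for Morc1 between MAPC and NS when scaled (-0.06) and in the series matrix (-0.17).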

Other observations

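The neighbouring bone morphogenetic protein (BMP) branch, which signals through Smad1, Smad5 and Smad9, was also read from a list. Of 17 BMP genes tested, 6 were higher, 6 were lower and 5 did not pass in MAPC against ESC. In MAPC against NS, 5 were higher, 7 were lower and 5 did not pass. Among all genes, 15.9% were higher and 22.1% lower in MAPC against ESC, and 21.2% and 22.5% in MAPC against NS. Bmper, a secreted BMP-binding protein, read 3.33 and 3.31 in MAPC, -1.30 and -1.08 in ESC, and -0.61 and -0.57 in NS (log2 ratios), and exceeded ESC by 4.51 (adjusted p = 2.25e-08, limma). Nog, which encodes the BMP antagonist noggin, was also higher in MAPC than in ESC, by 1.39, and than in NS, by 1.24 (adjusted p = 1.65e-06 and 2.01e-06, limma). Smad1 and the BMP-induced genes Id2 and Id3 were lower in MAPC than in ESC, with differences of -2.0, -2.48 and -3.78 (adjusted p = 2.83e-06, 5.66e-06 and 4.89e-07, limma), and lower than in NS, with -3.17, -3.39 and -5.19. The ligand Bmp7 read -1.80 and -1.67 in MAPC, 0.13 and -0.18 in ESC, and 2.80 and 2.79 in NS.

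Of 6 genes of the TGF-beta branch tested, 1 was higher, 4 were lower and 1 did not pass in MAPC against ESC. Among all genes, 15.9% were higher and 22.1% lower. Tgfb1, a ligand, was lower at -0.78 (adjusted p = 7.05e-05), or -0.21 on its second probe (adjusted p = 0.0391), and ran from -1.64 to -0.19 over the other settings. Tgfbr2, its type II receptor, was higher by 0.68 (adjusted p = 0.000113, limma). None of 4 blood markers tested passed in any of the 3 comparisons.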
